A study of Danio rerio with 12 samples.

Results

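The retinal pigment epithelium (RPE) is the pigmented cell layer that supports the photoreceptors. After its ablation in zebrafish larvae, 76 genes were less abundant, at both times, in RNA of cells sorted from the eye as immune cells. They were chosen from the measured values. On the scale log2(TPM + 1), where TPM is the abundance of a transcript scaled by its length and by the depth of the library, all 3 ablated libraries lay below all 3 unablated ones at each time. The group means also differed by at least 1 log2 unit at each time. The 76 came from 8290 genes with a mean of at least 5 TPM in unablated libraries at both times, among 25281 genes measured, and made up 0.917% of the eligible genes. Because ablated and unablated libraries chose the genes, their differences are given as a description. Tests of that contrast appear only as counts, from which nothing is read.

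Cells carrying the red fluorescent protein mCherry, given in the labels as macrophages and microglia, were sorted from dissociated larval eyes, and their RNA was amplified and sequenced. Each library came from at most 1000 cells, from an unstated number of eyes. The ablated groups were kept in 10 mM metronidazole from day 5 to day 6 after fertilisation (24 h), and the unablated groups received no drug, so effects of the drug and of the ablation cannot be told apart. Both conditions were raised in 1.5X phenylthiourea, which blocks pigmentation, from day 0.25 to day 5. The 4 groups, of 3 libraries each, were ablated and unablated eyes at 2 days post-injury (dpi) and ablated and unablated eyes at 4 dpi. The sources used here do not name the transgenes behind the ablation and the reporter. Nor do they say whether replicates are independent pools of larvae, so a p-value reflects only how much these samples differ among themselves, in part perhaps for technical reasons.

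Macrophages are the mobile phagocytes of the body and microglia are the resident macrophages of the retina and brain. After injury such cells clear debris, change their lipid metabolism and shape, and divide or recruit other leukocytes through chemokines. Genes of cell junctions, keratins and many neural transcription factors are by contrast known mainly from epithelia and neurons. The adhesion gene epcam marks epithelia, and in zebrafish it is also expressed by a population of skin cells that share the macrophage gene mpeg1.1.

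Total counts per library ran from 19791633 to 38935355, with 16299 to 19601 genes detected. The macrophage gene mpeg1.1 stood at 1625, 1473 and 1193 TPM in ablated libraries at 2 dpi, against 929.9, 1476 and 1426 TPM in unablated ones, and at 1581, 1179 and 1452 TPM in ablated libraries at 4 dpi, against 1672, 1502 and 1999.6 TPM in unablated ones. The conditions overlapped for mpeg1.1 at both times. The macrophage gene mfap4 had 1480, 1862 and 2056 TPM in ablated and 706, 406 and 199 TPM in unablated libraries at 2 dpi. At 4 dpi mfap4 had 2378, 1998 and 2227 TPM in ablated and 659, 963 and 770 TPM in unablated libraries. The macrophage gene csf1ra was also higher in all ablated libraries at 2 dpi (ablated minus unablated, 0.96 log2 units). It overlapped at 4 dpi (-0.02). RNA of other cells was also present. The photoreceptor list took 1.75%, 0.289% and 0.114% of counts in ablated replicates 1 to 3 at 2 dpi, against 15.2%, 13.3% and 0.146% in the unablated ones. At 4 dpi it took 0.0995%, 3.98% and 0.0843% in ablated libraries, against 0.705%, 0.119% and 0.757% in unablated ones. The RPE gene rpe65a was at or below 0.0857 TPM in every ablated library, against 1.09, 279 and 2.25 TPM in unablated libraries at 2 dpi and 5.56, 0.554 and 6.09 TPM at 4 dpi. It is not among the 76, since its unablated mean at 4 dpi was under 5 TPM. The RPE gene rlbp1b overlapped at 2 dpi, with 0 TPM in replicate 3 of both conditions. At 4 dpi rlbp1b had 0.0856, 1.03 and 0.481 TPM in ablated and 17.6, 10.3 and 20.2 TPM in unablated libraries. The RPE gene dct was at 0 TPM in 7 of 12 libraries and overlapped at both times.

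The median difference (ablated minus unablated) of the 76 genes was -1.86 log2 units at 2 dpi, with a range of -3.36 to -1.05, and -1.82 at 4 dpi, with a range of -4.26 to -1.08. Over all eligible genes the medians were 0.23 and 0.02, so relative to the whole table the medians of the 76 were -2.09 and -1.85. Differences of at least 2 log2 units were seen for 30 genes at 2 dpi and 32 at 4 dpi, and the difference was the larger one at 4 dpi for 38 of 76. In these bulk sorts fewer cells of a type and less RNA per cell cannot be told apart. At 2 dpi the rule was met by 213 genes (2.57% of those eligible) and at 4 dpi by 625 (7.54%), so that the 76 are 35.7% of the 2 dpi list and 12.2% of the 4 dpi list. Separation alone, all 3 ablated libraries below all 3 unablated ones, held for 5.75% of eligible genes at 2 dpi and 16.2% at 4 dpi. The mirrored rule, higher after ablation at both times, was met by 452 genes.

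**Figure D1:**
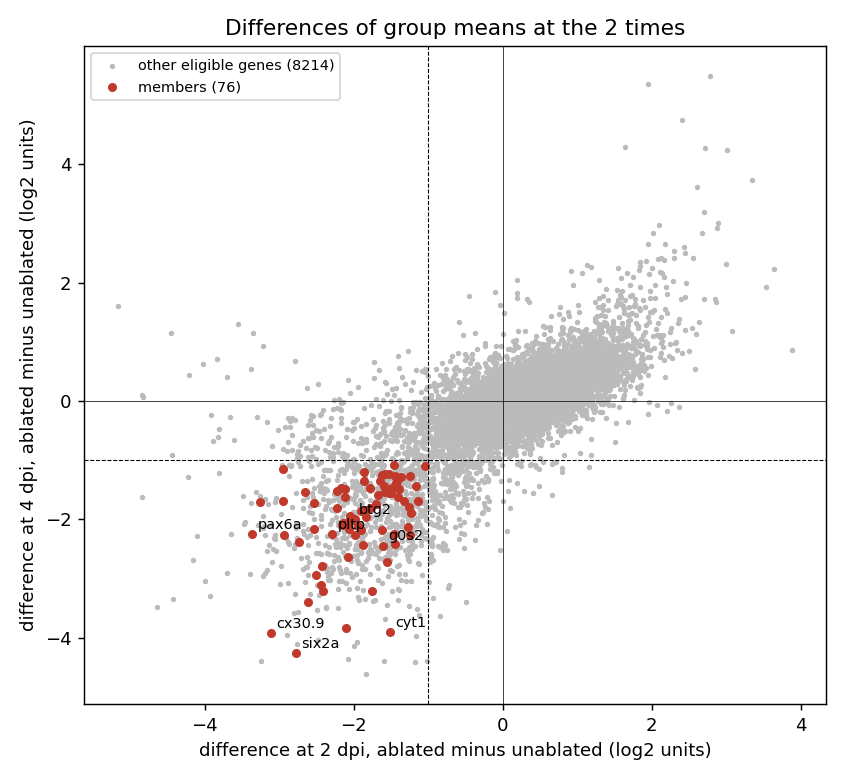
Difference of group means (ablated minus unablated, log2 units of TPM + 1) at 2 dpi (x axis) and 4 dpi (y axis) for the 76 genes (red) and the other eligible genes (grey). The dashed lines stand at 1 log2 unit lower, and grey points beyond both lines had libraries that overlapped between conditions at one of the times or at both.

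Most of the 76 genes were of low or middling abundance. Their median mean level in unablated libraries was 17.1 TPM at 2 dpi and 15.8 TPM at 4 dpi, 43 and 44 of them lay under 20 TPM, and 8 and 10 reached 100 TPM. The conditions were often close at their nearest points. The median gap between the lowest unablated and the highest ablated library was 0.52 log2 units at 2 dpi and 0.66 at 4 dpi, and the gap was under 0.5 in 37 genes at 2 dpi and 30 at 4 dpi. The smallest gaps were 0.01 for stx3a at 2 dpi and 0.02 for hook1 at 4 dpi, and the widest were 1.72 for si:ch211-147d7.5 at 2 dpi and 2.91 for cx30.9 at 4 dpi. Sorted by the function of the protein, after the genes were known, 9 belong to adhesion and junctions, 14 to the cytoskeleton, small GTPases and membrane traffic, 13 to transcription and chromatin, 11 to metabolism and 14 to signalling and growth control, and 15 were given no class. The median differences of the classes ran from -1.94 to -1.59 at 2 dpi and from -2.03 to -1.62 at 4 dpi.

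**Figure D2:**
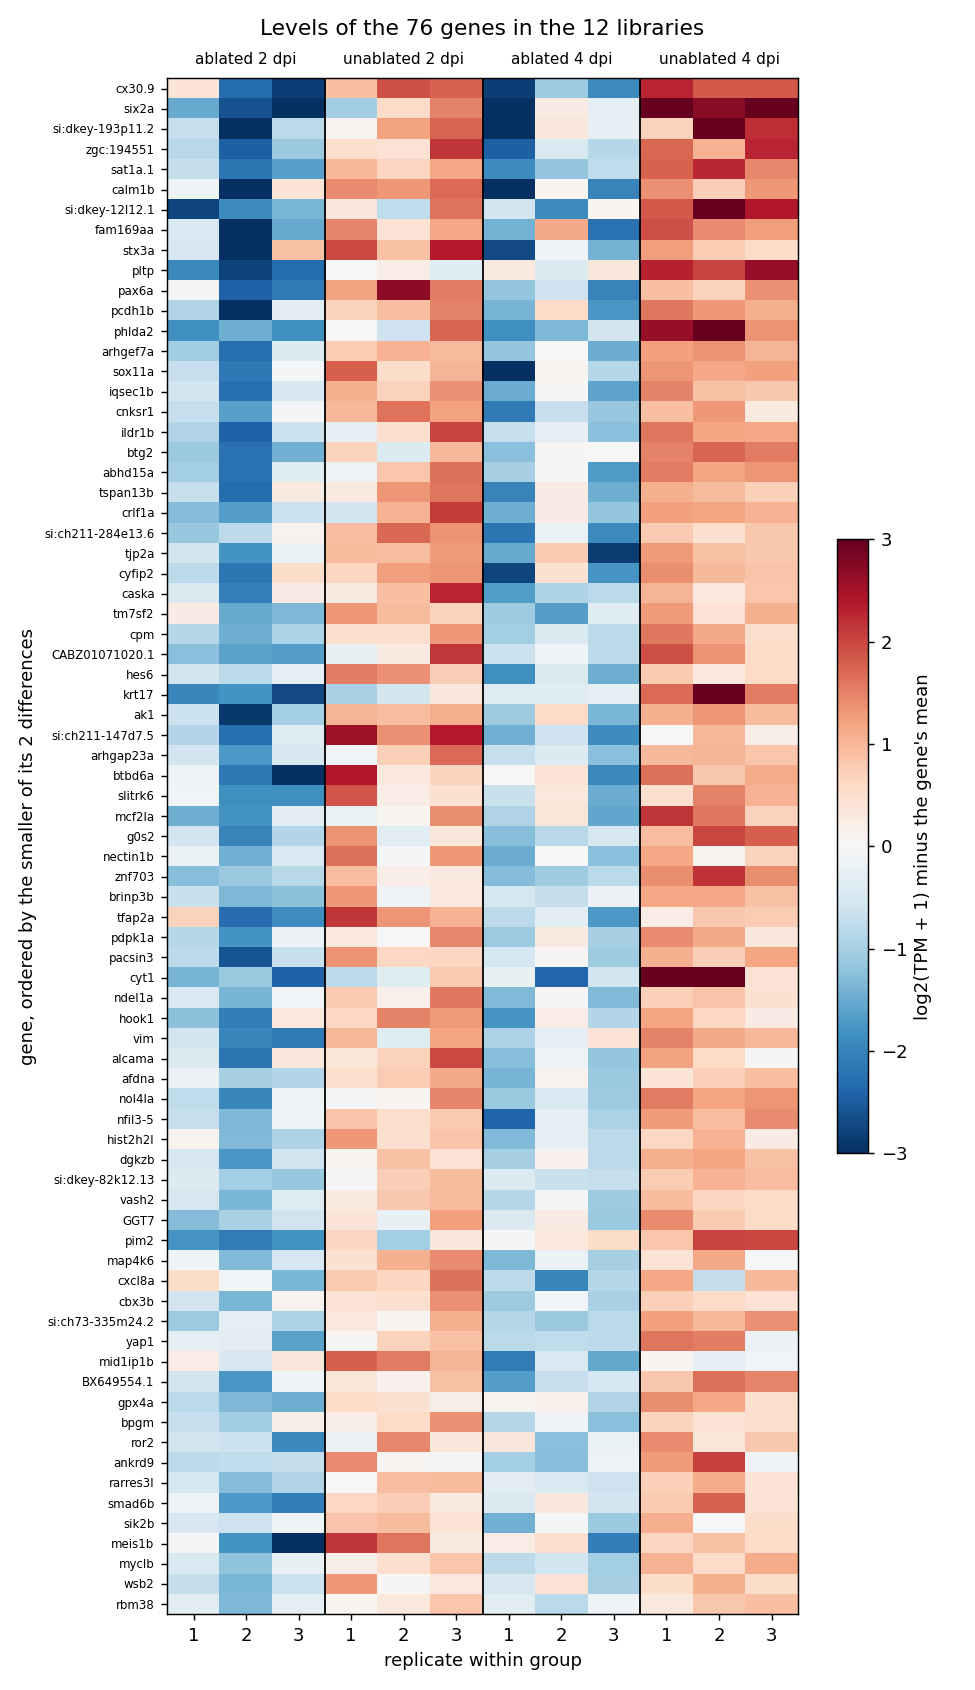
Level of each of the 76 genes (rows, ordered by the smaller of the 2 differences) in the 12 libraries (columns), as log2(TPM + 1) minus the gene's mean over all libraries, with colours saturating at 3 units. Ablated columns are mostly blue and unablated columns mostly red, and among ablated libraries replicate 2 at 2 dpi is the lowest for 55 genes and replicate 2 at 4 dpi the highest for 55.

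The adhesion and junction genes were led by cx30.9 (ENSDARG00000070362, GRCz11 chromosome 19, 37118547 to 37119891), a connexin, the subunit of gap junction channels. It had 8.33, 0.446 and 0 TPM in ablated libraries at 2 dpi, against 12.2, 26.2 and 23.2 TPM in unablated ones. At 4 dpi it had 0, 2.37 and 0.904 TPM in ablated libraries, against 33.7, 24.3 and 24.6 TPM in unablated ones. Ablated replicate 1 at 2 dpi approached the unablated range, while 2 of the 6 ablated libraries had no count at all. The differences were -3.11 and -3.92 log2 units at 2 and 4 dpi.

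The protocadherin gene pcdh1b (ENSDARG00000036175, chromosome 14, 37545341 to 37831941) had 4.9, 0.147 and 7.66 TPM in ablated and 16.7, 19.5 and 30.1 TPM in unablated libraries at 2 dpi. At 4 dpi pcdh1b had 3.21, 15.7 and 2.3 TPM in ablated and 32, 26.2 and 22.5 TPM in unablated libraries. Among ablated libraries replicate 2 was the lowest at 2 dpi and the highest at 4 dpi. Tight junctions are represented by tjp2a (ENSDARG00000063309), whose protein ZO-2 ties them to actin, and by ildr1b (ENSDARG00000040910), whose mammalian counterpart sits at the corners between cells. For tjp2a the values were 4.81, 1.48 and 6.5 TPM in ablated and 15.6, 15.4 and 20.04 TPM in unablated libraries at 2 dpi, and 2.01, 13.9 and 0.201 TPM in ablated and 20.02, 14.9 and 14.2 TPM in unablated libraries at 4 dpi, where ablated replicate 2 stood just under the unablated range and ablated replicate 3 was nearly silent. For ildr1b they were 1.9, 0.0202 and 2.46 TPM in ablated and 3.45, 6.8 and 21.1 TPM in unablated libraries at 2 dpi and 2.38, 3.53 and 1.3 TPM in ablated and 15.3, 11.4 and 11.3 TPM in unablated libraries at 4 dpi.

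The scaffold kinase gene caska had 4.04, 0.658 and 7.09 TPM in ablated and 7.26, 11.8 and 32.3 TPM in unablated libraries at 2 dpi. At 4 dpi caska had 1.13, 2.62 and 2.9 TPM in ablated and 12.7, 7.46 and 11.2 TPM in unablated libraries. At 2 dpi ablated replicate 3 and unablated replicate 1 nearly touched. The other members of the class were nectin1b and afdna, which encode a nectin and its actin linker afadin, alcama, an immunoglobulin-type adhesion molecule, and slitrk6, a neuronal membrane protein. Their differences came to -1.67, -1.49, -1.78 and -2.11 at 2 dpi and -1.58, -1.47, -1.47 and -1.63 at 4 dpi. Mean levels in the class ran from 0.792 to 4.27 TPM in ablated and from 6.41 to 22.1 TPM in unablated libraries at 2 dpi, and from 1.09 to 7.06 TPM in ablated and from 5.16 to 27.5 TPM in unablated libraries at 4 dpi.

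Among the genes of the cytoskeleton and membrane traffic, stx3a (ENSDARG00000001880, chromosome 14, 21699129 to 21751346), a syntaxin that drives vesicle fusion at apical membranes and at the ribbon synapses of mammalian photoreceptors, was far lower in ablated libraries on average. It had 14.3, 0.367 and 38.5 TPM in ablated and 83.3, 38.7 and 111 TPM in unablated libraries at 2 dpi. At 4 dpi stx3a had 2.29, 18.9 and 7.1 TPM in ablated and 50.2, 35.2 and 30.8998 TPM in unablated libraries. At 2 dpi ablated replicate 3 stood 0.01 log2 units under unablated replicate 2, while ablated replicate 2 was close to 0.

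This class includes regulators of small GTPases, the switches that organise actin and vesicle traffic. The Rac and Cdc42 exchange factor gene arhgef7a had 1.44, 0.0378 and 2.8 TPM in ablated and 7.53, 9.37 and 8.68 TPM in unablated libraries at 2 dpi. At 4 dpi arhgef7a had 1.24, 3.98 and 0.789 TPM in ablated and 10.8, 11.8 and 9.2 TPM in unablated libraries. The Arf exchange factor gene iqsec1b had 3.28, 0.294 and 3.46 TPM in ablated and 12, 9.09 and 15.2 TPM in unablated libraries at 2 dpi and 1.22, 5.4 and 1.08 TPM in ablated and 16.5, 10.4 and 9.91 TPM in unablated libraries at 4 dpi. In both genes the lowest library at 2 dpi was ablated replicate 2 and the highest ablated library at 4 dpi was replicate 2.

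The tetraspanin gene tspan13b had 4.55, 0.784 and 9.76 TPM in ablated and 9.9, 21.3 and 26 TPM in unablated libraries at 2 dpi. At 4 dpi tspan13b had 1.2, 9.6 and 2.2 TPM in ablated and 17.7, 16.3 and 13.7 TPM in unablated libraries. For cyfip2, a subunit of the WAVE complex that starts actin branches, the values were 4.46, 1.09 and 12.7 TPM in ablated and 13.5, 21.5 and 22.5 TPM in unablated libraries at 2 dpi and 0.385, 11.9 and 1.72 TPM in ablated and 23.7, 17.4 and 16 TPM in unablated libraries at 4 dpi. In each of these genes ablated replicate 3 at 2 dpi stood just under the lowest unablated library. The dynein partners ndel1a and hook1, the tubulin-modifying enzyme gene vash2 and the endocytic gene pacsin3 also belong to this group, with differences of -1.49, -2.12, -1.44 and -2.22 at 2 dpi and -1.55, -1.48, -1.38 and -1.52 at 4 dpi.

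Intermediate filament genes behaved differently from library to library. The keratin gene cyt1 (ENSDARG00000092947, chromosome 19, 5362420 to 5364649) had 7.98, 9.93 and 3.35 TPM in ablated and 12.5, 17.2 and 39.4 TPM in unablated libraries at 2 dpi. At 4 dpi cyt1 had 19.3, 3.49 and 14.4 TPM in ablated and 239, 628 and 30.5 TPM in unablated libraries. Its neighbour krt17 (ENSDARG00000094041, chromosome 19, 5367330 to 5372572), also a keratin, had 1.49, 1.79 and 0.486 TPM in ablated and 3.95, 5.6 and 11.2 TPM in unablated libraries at 2 dpi and 6.42, 6.52 and 6.93 TPM in ablated and 30.4, 394 and 27.5 TPM in unablated libraries at 4 dpi. Unablated replicate 2 at 4 dpi was the highest library for each keratin. Because keratin genes resemble each other, the division of reads between them depends on how the submitters treated ambiguous reads. The vimentin gene vim, listed as a Müller glia marker and also expressed in mesenchymal cells, had 1.9, 0.117 and 0 TPM in ablated and 7.72, 2.39 and 8.93 TPM in unablated libraries at 2 dpi, and 1.28, 2.63 and 4.76 TPM in ablated and 11.2, 8.57 and 7.73 TPM in unablated libraries at 4 dpi, and it overlaps trdmt1.

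**Figure D3:**
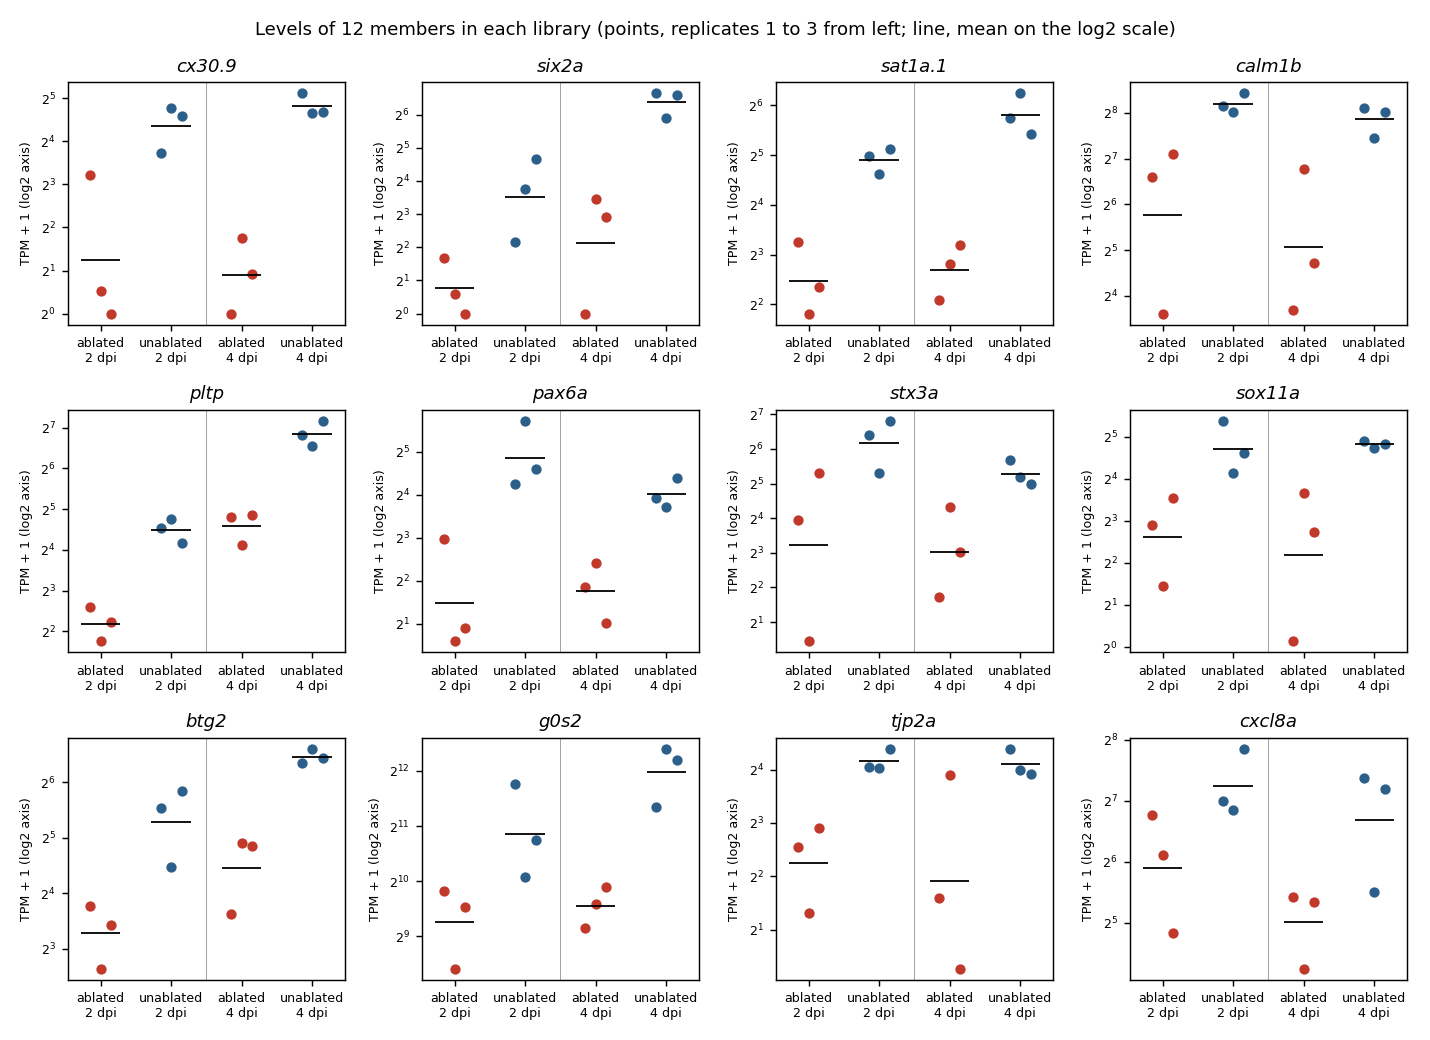
Levels of 12 of the 76 genes in each library (TPM + 1, log2 axis), with ablated libraries in red, unablated ones in blue and the mean on the log2 scale as a line. No ablated point reaches an unablated one at the same time, but the distance between them differs from gene to gene, from wide in cx30.9 at 4 dpi to nearly none in stx3a at 2 dpi.

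The transcription and chromatin genes include several known for eye and neural development. The homeobox gene six2a (ENSDARG00000058004, chromosome 13, 10232695 to 10235565) had the largest difference of all 76 genes at 4 dpi, -4.26 log2 units. It had 2.2, 0.509 and 0 TPM in ablated and 3.45, 12.6 and 24.5 TPM in unablated libraries at 2 dpi. At 4 dpi six2a had 0, 9.95 and 6.53 TPM in ablated and 98.9, 58.8 and 95.2 TPM in unablated libraries. Its 4 dpi unablated libraries were the highest of the 12, and at 2 dpi unablated replicate 1 was only slightly above ablated replicate 1.

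The largest difference at 2 dpi, -3.36 log2 units, belonged to pax6a (ENSDARG00000103379, chromosome 25, 15029041 to 15049781), a regulator of eye formation that stays active in amacrine and ganglion cells. It had 6.9, 0.513 and 0.866 TPM in ablated and 17.9, 51.5 and 23.3 TPM in unablated libraries at 2 dpi. At 4 dpi pax6a had 2.62, 4.35 and 1.04 TPM in ablated and 14.3, 12.1 and 20.05 TPM in unablated libraries. A second gene of the inner retinal neuron list, tfap2a, a factor of amacrine cells and skin, had 8.7, 0.229 and 0.658 TPM in ablated and 25.5, 14 and 11.5 TPM in unablated libraries at 2 dpi and 2.49, 3.82 and 0.834 TPM in ablated and 6.02, 9.53 and 9.14 TPM in unablated libraries at 4 dpi. In each of these genes ablated replicate 1 was the highest ablated library at 2 dpi and ablated replicate 2 at 4 dpi. These were also the ablated libraries with the most photoreceptor counts at their time. Among all genes that met the rule, ablated replicate 1 was the highest ablated library at 2 dpi for 33 and ablated replicate 3 for 39. At 4 dpi ablated replicate 2 was the highest ablated library for 55. Neither position was therefore particular to pax6a and tfap2a.

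The SoxC factor gene sox11a had 6.42, 1.72 and 10.5 TPM in ablated and 40.4, 16.6 and 23.3 TPM in unablated libraries at 2 dpi. At 4 dpi sox11a had 0.101, 11.7 and 5.6 TPM in ablated and 28.7, 25.7 and 27.2 TPM in unablated libraries. The helix-loop-helix gene hes6, which promotes neuronal differentiation, had 7.65, 6.28 and 9.49 TPM in ablated and 35.9, 31.9 and 20.3 TPM in unablated libraries at 2 dpi and 2.52, 8.38 and 3.61 TPM in ablated and 20.7, 14.8 and 18.1 TPM in unablated libraries at 4 dpi, and overlaps itm2cb. Each of them had its ablated and unablated libraries well apart at both times. The bZIP repressor gene nfil3-5, listed with the circadian clock, had 2.56, 1.26 and 4.22 TPM in ablated and 9.4, 7.23 and 8.9 TPM in unablated libraries at 2 dpi, and 0.0879, 3.76 and 1.99 TPM in ablated and 12.9, 9.9 and 14.3 TPM in unablated libraries at 4 dpi.

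The remaining genes of this class were the homeobox gene meis1b, the zinc finger gene znf703, the Hippo pathway coactivator gene yap1, the Myc family gene myclb, nol4la, the heterochromatin protein gene cbx3b and the histone gene hist2h2l. Their differences lay between -2.94 (meis1b) and -1.14 (myclb) at 2 dpi and between -2.71 (znf703) and -1.15 (meis1b) at 4 dpi. The most abundant was hist2h2l, with 221, 82.5 and 109 TPM in ablated and 508, 290.3 and 377 TPM in unablated libraries at 2 dpi. At 4 dpi hist2h2l had 82.3, 169.7 and 119 TPM in ablated and 317, 425 and 247 TPM in unablated libraries.

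Metabolic genes held the most abundant member, g0s2 (ENSDARG00000078859, chromosome 23, 39606108 to 39607679), whose product inhibits the lipase that breaks down stored triglyceride and which was picked for description after its values were seen. It had 907, 339 and 736 TPM in ablated and 3474, 1081 and 1715 TPM in unablated libraries at 2 dpi. At 4 dpi g0s2 had 564, 769.9 and 954 TPM in ablated and 2594, 5433 and 4717 TPM in unablated libraries. The means were 661 ± 292 TPM in ablated and 2089.7 ± 1239.9 TPM in unablated libraries at 2 dpi and 762 ± 195 TPM in ablated and 4248 ± 1476 TPM in unablated libraries at 4 dpi (SD, n = 3 each). The gap between the conditions was narrow at 2 dpi and wide at 4 dpi.

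The phospholipid transfer protein gene pltp (ENSDARG00000104495, chromosome 6, 55357188 to 55393309), which moves lipids between lipoproteins and helps macrophages export cholesterol, had 5.03, 2.38 and 3.67 TPM in ablated and 22, 26.1 and 16.9 TPM in unablated libraries at 2 dpi. At 4 dpi it had 27.1, 16.3 and 28 TPM in ablated and 112, 92.3 and 142 TPM in unablated libraries. The replicates of each group lay close together, and the ablated libraries at 4 dpi reached the level of the unablated ones at 2 dpi. The differences between conditions were -2.29 and -2.25 log2 units at 2 and 4 dpi.

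The polyamine acetylase gene sat1a.1 (ENSDARG00000035652) had 8.57, 2.52 and 4.12 TPM in ablated and 30.5, 23.7 and 34.1 TPM in unablated libraries at 2 dpi. At 4 dpi sat1a.1 had 3.26, 6.01 and 8.2 TPM in ablated and 52.9, 74.8 and 42 TPM in unablated libraries, with every ablated library well below every unablated one. Enzymes of lipids included tm7sf2, a sterol reductase of cholesterol synthesis, and abhd15a, a hydrolase-fold gene. The first had 2.71, 0.0975 and 0.222 TPM in ablated and 6.66, 5 and 3.96 TPM in unablated libraries at 2 dpi, and 0.482, 0 and 1.45 TPM in ablated and 6.54, 3.25 and 5.59 TPM in unablated libraries at 4 dpi, at most 210 counts in any library. For abhd15a the values were 1.34, 0 and 2.7 TPM in ablated and 3.3, 7.44 and 13.9 TPM in unablated libraries at 2 dpi and 1.37, 3.62 and 0.468 TPM in ablated and 12.7, 9.7 and 11 TPM in unablated libraries at 4 dpi.

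The lipid peroxide reductase gene gpx4a, which protects cells from ferroptosis, had 13.8, 9.18 and 8.43 TPM in ablated and 38.3, 34.5 and 28.5 TPM in unablated libraries at 2 dpi. At 4 dpi gpx4a had 26.5, 28 and 12.9 TPM in ablated and 67.9, 57.4 and 36 TPM in unablated libraries, and overlaps polr2eb. The adenylate kinase gene ak1, the fatty acid synthesis regulator gene mid1ip1b, the diacylglycerol kinase gene dgkzb, the glutamyltransferase family gene GGT7 and the glycolytic side-branch enzyme gene bpgm make up the rest. Their differences came to -2.54, -1.44, -1.40, -1.42 and -1.24 at 2 dpi and -1.73, -1.26, -1.61, -1.36 and -1.26 at 4 dpi.

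In signalling and growth control the most abundant gene was calm1b (ENSDARG00000034187, chromosome 20, 16743056 to 16775258), one of several genes for the calcium sensor calmodulin. It had 95.8, 11.3 and 137 TPM in ablated and 282, 258 and 343 TPM in unablated libraries at 2 dpi. At 4 dpi calm1b had 12, 108 and 25.4 TPM in ablated and 274, 174 and 257 TPM in unablated libraries. Ablated replicate 2 was by far the lowest library at 2 dpi and the highest ablated one at 4 dpi. The antiproliferative gene btg2 (ENSDARG00000020298), an immediate early and p53-responsive gene, had 12.6, 5.22 and 9.76 TPM in ablated and 45.6, 21.1 and 56.2 TPM in unablated libraries at 2 dpi, and 11.3, 28.9 and 27.8 TPM in ablated and 80.6, 96.4 and 85 TPM in unablated libraries at 4 dpi. The pleckstrin-domain gene phlda2, which restrains placental growth in mammals and here overlaps CU024870.2, had 0, 0.296 and 0 TPM in ablated and 2.58, 1.34 and 11.1185 TPM in unablated libraries at 2 dpi and 0, 0.412 and 1.43 TPM in ablated and 21.1, 48.7 and 8.07 TPM in unablated libraries at 4 dpi.

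Some of these genes act at the membrane or outside the cell. The neutrophil chemokine gene cxcl8a (ENSDARG00000104795, chromosome 1, 14253118 to 14254166) had 108, 68.6 and 27.5 TPM in ablated and 127, 115 and 231 TPM in unablated libraries at 2 dpi. At 4 dpi cxcl8a had 42, 18 and 39.7 TPM in ablated and 166, 44.2 and 145 TPM in unablated libraries, where ablated replicate 1 and unablated replicate 2 nearly met. The soluble cytokine receptor gene crlf1a had 1.34, 0.831 and 2.73 TPM in ablated and 2.82, 10.9 and 23.9 TPM in unablated libraries at 2 dpi and 1.09, 5.82 and 1.58 TPM in ablated and 12.6, 12.1 and 10.9 TPM in unablated libraries at 4 dpi. The membrane carboxypeptidase gene cpm had 1.31, 0.523 and 1.19 TPM in ablated and 4.86, 4.95 and 9.44 TPM in unablated libraries at 2 dpi and 1.08, 2.09 and 1.4 TPM in ablated and 11.6, 8.3 and 5.03 TPM in unablated libraries at 4 dpi.

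The Ras pathway scaffold gene cnksr1 had 3.25, 1.22 and 5.74 TPM in ablated and 12.6, 20.1 and 14.9 TPM in unablated libraries at 2 dpi. At 4 dpi cnksr1 had 0.577, 3.22 and 2.12 TPM in ablated and 11.8, 16.1 and 7.48 TPM in unablated libraries. The survival kinase gene pim2 had 7.99, 6.14 and 7.85 TPM in ablated and 46.6, 14 and 37.5 TPM in unablated libraries at 2 dpi and 28.5, 37.1 and 43.4 TPM in ablated and 53.7, 123 and 121 TPM in unablated libraries at 4 dpi, its ablated libraries at 4 dpi lying within the range of the unablated ones at 2 dpi. The kinase genes pdpk1a, map4k6 and sik2b, the Wnt receptor gene ror2, the BMP inhibitor gene smad6b and the RNA-binding gene rbm38 had differences between -1.86 (smad6b) and -1.05 (rbm38) at 2 dpi and between -1.55 (pdpk1a) and -1.09 (rbm38) at 4 dpi.

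Of the 15 genes without a class, fam169aa had 10.4, 0.767 and 4.49 TPM in ablated and 42.4, 20.3 and 34.2 TPM in unablated libraries at 2 dpi. At 4 dpi fam169aa had 4.84, 33.4 and 2.34 TPM in ablated and 59.4, 40.8 and 36.3 TPM in unablated libraries, where ablated replicate 2 reached close to the unablated range. BX649554.1 (ENSDARG00000060662), which the reference name table gives as prf1.9, a gene of the pore-forming perforins of cytotoxic lymphocytes, had 10.9, 4.19 and 15 TPM in ablated and 21.3, 17.9 and 30.7 TPM in unablated libraries at 2 dpi and 4.57, 9.69 and 11.1034 TPM in ablated and 29.4, 53.2 and 47.3 TPM in unablated libraries at 4 dpi. si:dkey-82k12.13, named ly96 in that table, the co-receptor for lipopolysaccharide in mammals, was described after its values were seen. It had 51.7, 33.7 and 31.1 TPM in ablated and 67, 116 and 134 TPM in unablated libraries at 2 dpi. At 4 dpi it had 52.1, 43.2 and 42.7 TPM in ablated and 118, 143 and 132 TPM in unablated libraries, with narrow spread among the ablated ones. By the same table zgc:194551 is b3galt11, CABZ01071020.1 is F2RL2 and si:ch211-147d7.5 is spata45. The others were si:dkey-193p11.2, si:dkey-12l12.1, the gene ENSDARG00000092354, si:ch73-335m24.2, btbd6a, brinp3b, ankrd9, rarres3l and wsb2, and differences in the class ran from -3.26 to -1.23 at 2 dpi and from -3.39 to -1.08 at 4 dpi.

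The members nearest the threshold of 1 log2 unit were rbm38 (-1.05 at 2 dpi and -1.09 at 4 dpi), wsb2 (-1.46 and -1.08) and myclb (-1.14 and -1.70). Just outside it, with every other criterion met, were bada (-1.78 and -0.97), si:ch73-92i20.1_1 (-1.29 and -0.96) and frmd4ba (-1.01 and -0.96). In 11 of the 76 genes at least one library had 0 counts. The library kit does not mark the strand. Reads of 13 members may therefore belong in part to a gene that overlaps them, whereas 63 members overlap no other gene. The 13 are phlda2, caska, hes6, ak1, btbd6a, mcf2la, hook1, vim, alcama, GGT7, cbx3b, gpx4a and wsb2.

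The titles of the 2 dpi libraries give equal replicate numbers the same date, so each date gives its own size of the difference. Its direction is fixed by the rule, under which every ablated library at 2 dpi lies below every unablated one. The median differences of the 76 in replicates 1 to 3 were -1.38, -2.19 and -1.85 log2 units, against 0.32, 0.28 and 0.17 over eligible genes. At 4 dpi all libraries carry 1 date. With the rule read by replicate pair, each ablated library below the unablated one of its number, 246 genes qualified in place of 76. At 4 dpi these numbers are not known to pair libraries.

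The mean log2(TPM + 1) of the 76 genes was 2.78, 1.71 and 2.59 in ablated replicates 1 to 3 at 2 dpi, against 4.15, 4.08 and 4.60 in the unablated ones. At 4 dpi it was 2.23, 3.19 and 2.45 in ablated libraries, against 4.70, 4.72 and 4.43 in unablated ones. Ablated replicate 2 was thus the lowest ablated library at 2 dpi and the highest at 4 dpi, and unablated libraries differed less among themselves than ablated ones. After group means were removed, 31 of 76 genes (40.8%) correlated with the mean of the other members at Pearson's r over 0.7, over 12 libraries that share their depth scaling. Of the eligible genes outside the 76, 2.35% passed 0.7 with the mean of the 76. The median r was 0.68 for members and -0.03 for those genes. The rule used these same libraries, and its demand for non-overlap limits how members can vary within groups. How far this raised their correlation was not tested. The 10 other genes most like the mean profile of the 76 by the same measure, with r between 0.87 and 0.92, were zgc:103700, mtmr10, tpd52l1, fam43a, lfng, usp46, rasd4, gcnt3, ifnlr1 and gnal.

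Nothing in the labels gives the cell that expressed each gene, so the members were set beside markers of the cell types that the sorts could hold. None of the 76 belongs to the macrophage identity list (31 eligible genes), the microglia list (18), the photoreceptor list (39) or the RPE list (11). Of all eligible genes 0.917% were members, so lists of these sizes are likely to hold few or none. Nothing is read from the absence. Members of other cell type lists were pax6a and tfap2a (inner retinal neuron, 16 eligible), cyt1 and krt17 (epithelium and cornea, 32), vim (Müller glia, 15) and BX649554.1 (lymphocyte and NK, 10). From lists of functions, cxcl8a (inflammatory mediators, 12), pltp (lipid handling, 22), btg2 (immediate early response, 28), nfil3-5 (circadian clock, 24) and gpx4a (oxidative stress and iron, 33) were members, and btg2 is also in the p53 and the quiescence lists. The other 65 members are in no list.

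The epithelial gene epcam had 256, 41.6 and 1049 TPM in ablated libraries at 2 dpi, against 186, 1292 and 3796 TPM in unablated ones, and 113, 345 and 167 TPM in ablated libraries at 4 dpi, against 1280.1, 1462 and 1418 TPM in unablated ones. The groups overlapped at 2 dpi, where replicate 1 was higher in the ablated library and epcam is therefore not among the 76. They were apart at 4 dpi. The differences of the epithelial marker cldnh were -2.63 and -2.80 log2 units at 2 and 4 dpi, and those of krt4 were -1.26 and -2.71. The marker krt18a.1 had 0.84 at 2 dpi, where ablated replicate 2 stood at 17.7 TPM, and -4.01 at 4 dpi. All of these markers overlapped at 2 dpi, and krt4 also at 4 dpi. The epithelium and cornea list summed to 2075 to 4830 TPM in ablated and 1033 to 12405 TPM in unablated libraries at 2 dpi, and to 2836 to 3696 TPM in ablated and 5391 to 8170.5 TPM in unablated libraries at 4 dpi. Of its 44 tested genes outside the 76, 12 fell at 4 dpi, among them epcam, cdh1 and esrp1, and 0 rose (edgeR, Benjamini-Hochberg 0.05). Of all genes outside the 76, 1.8% were called lower.

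Once group means were removed, 19 of 76 members (25%) had an r with epcam over 0.7 across the 12 libraries, against 8.91% of eligible genes outside the 76. The median r was 0.45 for members and -0.06 for those genes. With the mean profile of the epithelium and cornea list, without members, the shares over 0.7 lay the other way. They were 6.58% of members and 13.8% of eligible genes, with median r of 0.28 and -0.04. These values describe libraries that share depth, sort and RNA mixture, and genes are not independent. The rule that chose the members also used these libraries, and its part in their r was not tested. The members with the highest r were caska (0.91), abhd15a (0.90), ildr1b (0.89), arhgap23a (0.89) and nol4la (0.89). By class, 7 of the 14 cytoskeletal genes, 4 of the 9 junction genes, 3 of the 13 transcription genes, 3 of the 11 metabolic genes, 2 of the 14 signalling genes and 0 of the 15 genes without a class passed 0.7.

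**Figure D4:**
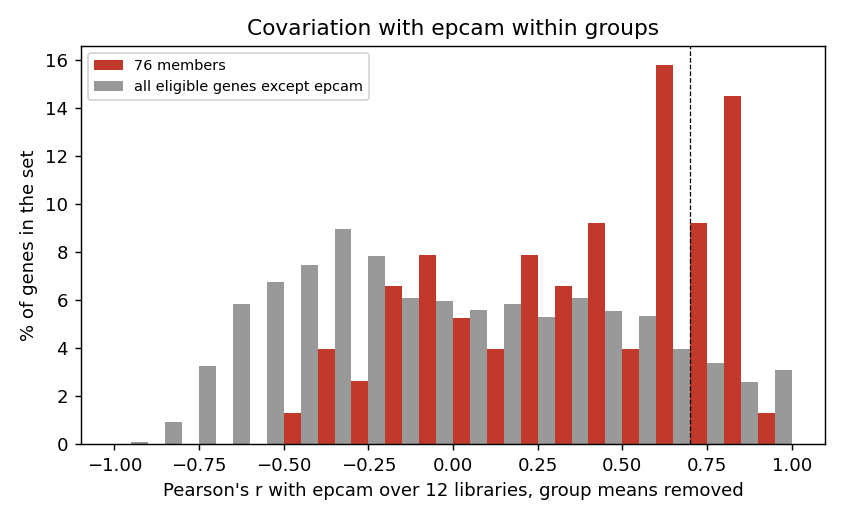
Share of genes (y axis, %) by Pearson's r with epcam over the 12 libraries with group means removed (x axis), for the 76 members (red) and all eligible genes except epcam, members included (grey). The dashed line at 0.7 has 25% of members and 9.06% of those eligible genes to its right.

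A second set of 26 members had an r with epcam between -0.3 and 0.3, among them cx30.9, pltp, pax6a, g0s2, cxcl8a, cyt1, krt17, pim2 and gpx4a. The median differences of this set were -1.72 at 2 dpi and -1.73 at 4 dpi, and those of the 19 genes with r over 0.7 were -1.87 and -1.85. The mean level of the 26 genes was 2.96, 2.18 and 2.15 in ablated libraries at 2 dpi, against 4.40, 4.07 and 4.41 in unablated ones, and 2.68, 2.95 and 2.83 in ablated libraries at 4 dpi, against 4.90, 5.10 and 4.65 in unablated ones (mean log2(TPM + 1)). For the 19 genes it was 2.38, 1.08 and 3.04 in ablated libraries at 2 dpi, against 3.43, 3.91 and 4.63 in unablated ones, and 1.78, 3.07 and 1.89 in ablated libraries at 4 dpi, against 4.31, 4.02 and 3.91 in unablated ones. In unablated libraries at 4 dpi the 19 genes were highest in replicate 1. There epcam was lowest, though its level differed little among these libraries (1280, 1462 and 1418 TPM in replicates 1 to 3). In replicate 1 at 2 dpi epcam was higher in the ablated library. The rule fixes that the 19 genes were lower there, so nothing is read from that difference. The part of epcam-expressing cells in either set was not tested.

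**Figure D5:**
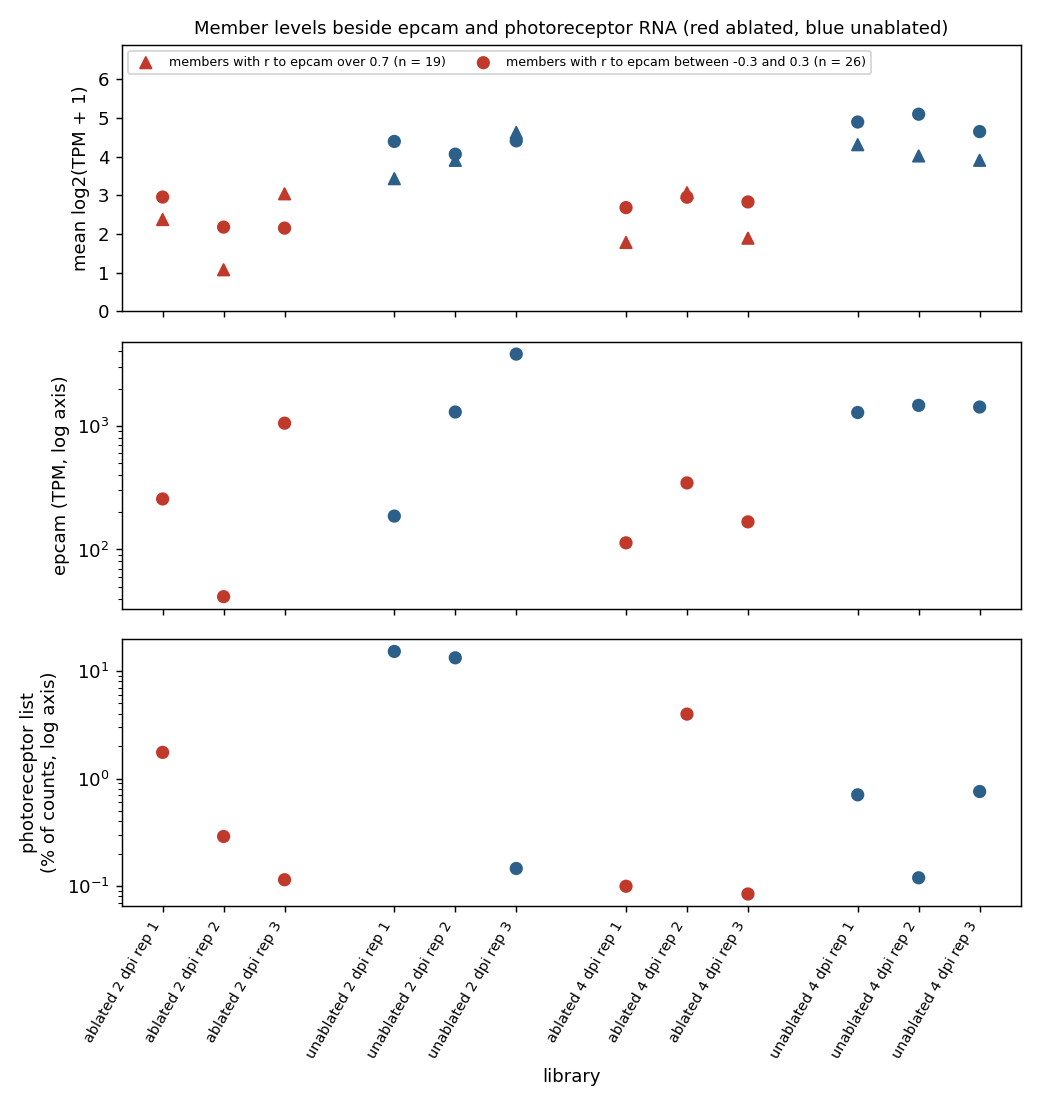
For each library, the mean log2(TPM + 1) of the 19 members with r over 0.7 to epcam and of the 26 with r between -0.3 and 0.3 (top), the level of epcam (middle, TPM, log axis) and the share of counts in the photoreceptor list (bottom, %, log axis), with ablated libraries in red and unablated ones in blue. The rule fixes that both sets of members are lower in all ablated libraries at each time. The epcam level overlaps between conditions at 2 dpi and the photoreceptor share at both times.

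The mean profiles of other cell type lists were compared in the same way, without members of the 76. The median r of the members was 0.47 with the lymphocyte and NK list, 0.35 with macrophage identity and 0.28 with epithelium and cornea, against -0.05, -0.04 and -0.04 for eligible genes. With the other 10 lists it lay between -0.14 and 0.21. An r over 0.7 with the lymphocyte and NK list was found for 11 members (14.5%, against 5.27% of eligible genes). They include CABZ01071020.1 and cpm, and also ildr1b, arhgap23a, caska, crlf1a, pdpk1a, alcama and nol4la, which passed the same bound with epcam. With macrophage identity 4 members passed (5.26%, against 1.19%), namely si:dkey-82k12.13, arhgap23a, ildr1b and myclb. Shares below those of eligible genes were found for the retinal lists. The inner retinal neuron, photoreceptor and Müller glia lists, each summed without members, overlapped between conditions at both times. The Müller glia sum ran not far above the level of apoeb, a microglia marker (26854 and 21671 TPM in ablated replicate 1 at 2 dpi). That sum therefore need not reflect RNA of Müller glia. How the demand for non-overlap acts on genes that follow these lists was not tested, and nothing is read from these lower shares. The inner retinal neuron list had 5 (6.58%, against 12.8%), namely hes6, btbd6a, slitrk6, mid1ip1b and meis1b, the photoreceptor list 2 (2.63%, against 11.9%), hes6 and meis1b, and Müller glia 1 (1.32%, against 11.6%), meis1b. The epithelium list had 5 (6.58%, against 13.8%), microglia 2 (2.63%, against 8.24%), tfap2a and meis1b, vessels 1 (1.32%, against 0.953%), yap1, and RPE 0 (against 2.92%). Lens, neutrophil, erythrocyte and iridophore lists had 0. At 2 dpi the summed epithelium, microglia and RPE lists also overlapped between conditions, and nothing is read from their lower shares either. Macrophage identity and epcam overlapped at 2 dpi too, although more members than eligible genes, by share, passed 0.7 with them.

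Inner retinal neuron RNA summed to 23.6 to 871 TPM in ablated and 63.9 to 6385 TPM in unablated libraries at 2 dpi, and to 36.3 to 1486 TPM in ablated and 192 to 1426 TPM in unablated libraries at 4 dpi. The neuronal gene snap25b had 180.1, 7.07 and 0.0908 TPM in ablated and 1612, 409 and 12.8 TPM in unablated libraries at 2 dpi, and 4.51, 311 and 2.66 TPM in ablated and 261, 41.4 and 147.5 TPM in unablated libraries at 4 dpi. The neuronal gene elavl3 had 1.68, 0.377 and 0 TPM in ablated and 7.48, 0.919 and 0 TPM in unablated libraries at 2 dpi, and 0.372, 1.92 and 0.141 TPM in ablated and 1.12, 0.527 and 2.78 TPM in unablated libraries at 4 dpi. The conditions overlapped for snap25b and elavl3 at both times. Another neuronal marker, tfap2b, was low throughout but was apart at 2 dpi. It had 0.00958, 0 and 0.0166 TPM in ablated and 3.42, 1.15 and 0.209 TPM in unablated libraries there (difference -1.16). At 4 dpi tfap2b overlapped, with 0.00952, 1.14 and 0.0486 TPM in ablated and 1.45, 0.130 and 1.13 TPM in unablated libraries. The part of neurons in the values of pax6a, tfap2a, hes6, meis1b, slitrk6 and btbd6a was not tested. Of the lymphocyte markers, lck was at most 6.15 TPM with 0 in 8 of 12 libraries, and zap70 was at 0 in 11. The third, cd4-1, was at 0 in 1 library and had 3.48, 3.19 and 7.96 TPM in ablated and 9.28, 1.94 and 6.81 TPM in unablated libraries at 4 dpi. The part of lymphocytes in the members' values was not tested.

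In edgeR's quasi-likelihood test of the contrast that chose the genes, 0 of 76 were called lower at 2 dpi (background 0.0% of 16048 genes) and 14 of 76 at 4 dpi (background 1.88% of 16313). None was called higher (background 0.0% at 2 dpi and 1.83% at 4 dpi). At 2 dpi 51 members had an unadjusted p under 0.05, as did 16.8% of all genes in either direction. DESeq2 called 48 members and limma 9, for which shares over all genes are not given here. At 4 dpi omission of any one 4 dpi library other than ablated replicate 2 gave 0 or 1 calls, while omission of that library gave 42. Since the rule used these libraries, nothing is read from the counts.

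The change between the times was not itself part of the rule and was tested within each condition. The rule did demand a mean of at least 5 TPM in unablated libraries at both times, and it used the same libraries. In ablated libraries pltp and pim2 rose between 2 and 4 dpi and none of the 76 fell, against a background of 0.376% of 18079 genes higher and 0.918% lower. In unablated libraries pltp rose and none fell, against 0.26% higher and 0.608% lower. The increase of pltp had a log2 fold change (4 over 2 dpi) of 2.62 in ablated libraries (SE 0.35, edgeR adjusted p = 0.0214) and of 2.22 in unablated libraries (SE 0.34, edgeR adjusted p = 0.0309), higher in 3 of 3 libraries in each. For pim2 it was 2.23 in ablated libraries (SE 0.46, edgeR adjusted p = 0.0497) and 1.40 in unablated ones (SE 0.45, edgeR adjusted p = 0.172). Time goes with larval age and with the dates in the titles, so these cannot be told apart.

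These calls rested on few libraries and were in part lost with the replicate block. With the replicate number as a block the adjusted p of pltp was 0.0322 in ablated and 0.0593 in unablated libraries, and that of pim2 in ablated libraries was 0.0761 (edgeR). This block joins equal numbers of both times, whose title dates differ, so it does not stand for a known pairing. Across 18 alternatives the adjusted p of pltp ran from 6.16e-11 to 0.141 in ablated and from 5.71e-07 to 0.320 in unablated libraries, always with a higher level at 4 dpi, and that of pim2 in ablated libraries ran from 0.000113 to 0.210. The call of pltp in ablated libraries was lost without any one of ablated replicates 2 or 3 at 2 dpi or any ablated library at 4 dpi (adjusted p 0.0574 to 0.141), and that of pim2 was lost without any one ablated library or any one unablated library at 4 dpi. In unablated libraries the call of pltp was lost without ablated replicate 3 or unablated replicate 2 at 2 dpi, and without ablated replicates 1 or 3 or unablated replicates 1 or 3 at 4 dpi (adjusted p 0.0569 to 0.0900).

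Across the 76 genes, the median log2 fold change (4 over 2 dpi) was 0.12 in ablated and 0.05 in unablated libraries. Over eligible genes it was -0.11 in ablated and -0.07 in unablated libraries. It was positive for 40 of 76 members in ablated libraries, against 42.7% of eligible genes. In unablated libraries it was positive for 39 of 76, against 44.9% of eligible genes. At an unadjusted p under 0.05 stood 6 of 76 members (7.89%) in each condition, against 14.1% of all genes in ablated and 15.2% in unablated libraries. All genes here include those under the floor of 5 TPM, so nothing is read from the lower share of members. Beside those called, the ablated libraries added higher btg2 (1.2), krt17 (2.33) and gpx4a (1) and lower mid1ip1b (-1.41). The unablated libraries added higher krt17 (4.27), cyt1 (3.51), znf703 (1.15) and pim2 (1.40) and lower mid1ip1b (-1.81, edgeR adjusted p = 0.0608), and none of these passed adjustment.

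The genes of the lists outside the 76 were also read at 4 dpi, where edgeR called 1.8% of all genes outside the 76 lower. Of all genes tested, 1.83% were called higher. Among the 76, this contrast gave 14 calls, and 0 with the replicate block. The calls of the lists, epithelium and cornea included, were not recomputed with other settings. Of 37 tested immediate early genes 5 fell (dusp2, dusp5, egr1, ier2a and ier2b) and 1 rose (klf2a), and the median difference of the 27 eligible ones was -0.63 at 2 dpi and -0.78 at 4 dpi. Of 28 genes of lipid handling 2 fell (insig1 and srebf2) and 0 rose, with medians of -0.40 and -0.52. Of 20 inflammatory mediators 2 fell (ccl20a.3 and ptgs2b). Of 20 lymphocyte and NK genes 3 fell (cd28, dusp2 and gata3), and of 36 circadian genes 1 fell (bhlhe41). Of 11 genes of the IL17 receptor and ccl20-ccr6 axis 4 fell and 0 rose, with medians of -1.12 and -2.10. Of 21 RPE genes 3 fell (bhlhe41, rlbp1b and rpe65a) and 0 rose. Of 20 microglia genes 3 fell and 3 rose, and of 36 genes of oxidative stress and iron 1 fell and 1 rose. Of 52 cell cycle genes 0 fell and 13 rose. None of the 37 inner retinal neuron, 54 photoreceptor or 18 Müller glia genes tested was called. The median differences of their eligible genes were nevertheless -2.42, -2.83 and -1.55 at 2 dpi and -1.67, -0.28 and -1.15 at 4 dpi. In simulated data, with changes planted only in the more abundant genes, edgeR recovered 5.97% of changes of log2 2 at 4 dpi. The absence of a call therefore does not show an unchanged level. At 2 dpi edgeR called no gene of any list.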

How the data were processed

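The authors deposited counts per gene and TPM per gene for 25281 genes in 12 libraries, per the file headers, and 0 columns of per-sample values were left unused. GRCz11 is the assembly named in the submitters' processing notes, while the sources used here do not give aligner, counting program or annotation. Libraries were made from at most 1000 sorted cells with a SMART-Seq HT and Nextera XT protocol without strand marks, per the labels' protocols. Reads of amplified cDNA are not independent molecules.

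The 76 genes were chosen on log2(TPM + 1) by the rule in the opening, and members and lists were chosen with earlier results of these data known. The 27 lists held 959 entries, of which 911 were found, 13 through the reference name table. Counts were tested with edgeR 4.0.16 (robust quasi-likelihood, TMM, default expression filter, Benjamini-Hochberg at 0.05 over all genes), with the 6 libraries of a time for ablated over unablated and all 12 for the contrasts between times. edgeR's test was tested on simulated data with 200 changed genes, chosen only among the more abundant ones. For ablated over unablated at 4 dpi the simulated data gave 46 calls, against 307 lower and 298 higher in the measured data. Recovery in the measured data may therefore differ. In the simulated data recovery at log2 3 was 59.1% and 62.1% for ablated over unablated at 2 and 4 dpi, and 75.8% for the contrast of times in ablated and in unablated libraries. At log2 2 it was 16.4% and 5.97% for ablated over unablated at 2 and 4 dpi, 47.8% for the contrast of times in ablated and 41.8% in unablated libraries, and at log2 1 at most 2.99%. DESeq2 1.42.0 and limma 3.58.1, in R 4.3.3, were alternatives, beside other scales, thresholds and omitted libraries. Described in full were the 25 members with a proper symbol and the largest smaller difference, members of lists, those nearest the threshold and those called between times, and others where stated. Correlations used log2(TPM + 1) with group means removed.

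At 2 dpi equal replicate numbers mean the same title date, and the deviations from group means correlated at r = 0.70, 0.01 and 0.74 across genes (other pairs -0.72 to 0.29). At 4 dpi the numbers were not taken to pair libraries (-0.33, -0.62 and -0.17). The replicate block, an alternative only, still used these numbers at 4 dpi. In the contrasts between times it joined equal numbers of both times. What the title dates stand for is unstated.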

Additional observations from a re-analysis of the deposited data

How the results depend on the processing

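The count of 76 depends on every part of the rule. It became 42 with a pseudocount of 5, 142 on TMM-normalised CPM and 155 on CPM with DESeq2 size factors, which kept 73 and 72 of the 76. It was 119 and 47 with a minimum of 1 and 10 TPM, 155 and 45 with a difference of 0.5 and 1.5, 760 without the demand for non-overlap, and 246 with the replicate block. Without unablated replicates 1 and 2 at 2 dpi it was 559, and without the 3 libraries richest in photoreceptor counts 637, an alternative added after the data were seen. Omission of single libraries gave 74 to 383, with 383 without unablated replicate 1, 207 without ablated replicate 3 and 117 without ablated replicate 1, all at 2 dpi. A looser rule or fewer libraries makes non-overlap easier; otherwise the cause was not tested. Of the 76, edgeR called 0 at 2 dpi, also with the replicate block and with any library omitted (0 to 0), and 18 in a fit of all 12 libraries, DESeq2 48 and limma 9. At 4 dpi 14 were called, DESeq2 called 56, limma 43, the fit of all 12 libraries 6 and the replicate block 0, and omissions gave 0 to 42. Between times in ablated libraries 2 were called, DESeq2 called 4, edgeR with DESeq2 size factors 1, without a filter 1, with the replicate block 1, with only that condition's libraries 0, and omissions gave 0 to 2. In unablated libraries 1 was called, DESeq2 called 3, edgeR with DESeq2 size factors 2, limma 3, the replicate block 0, only that condition's libraries 0, and omissions gave 0 to 2. Where an omission left 2 libraries in a group, they were assumed to vary like the others. Shares over all genes are not given for these alternatives, so nothing is read from how many members they called. Over 36 named genes 684 values were recomputed. Of these, 644 stayed within the replicate spread of the main value, 40 did not and 0 reversed. The rule set all ablated libraries below all unablated ones, so a changed pseudocount or omitted libraries could not reverse a sign. For those settings nothing is read from the absence of reversals. With 3 libraries a group and many members under 20 TPM, most smaller differences could be missed. In simulated data, with changes planted only in the more abundant genes, at most 2.99% of changes of log2 1 were recovered.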
